A study of Mus musculus with 8 samples.

Results

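Nucleolar ribosome biogenesis genes encode the machinery that makes ribosomes: RNA polymerase I, which copies the ribosomal DNA, the small nucleolar RNA-protein particles (snoRNPs) that modify the new transcript, and the factors that fold, cut and package it into the small and the large ribosomal subunit. Most of this work happens in the nucleolus. Blood stem cells are known for a low rate of protein synthesis compared with the progenitors they give rise to. The genes were chosen by name: every protein-coding gene whose symbol is Nop, Rrp or Utp followed by a number, plus Ncl, Npm1, Fbl, Mybbp1a, Nolc1, Gnl3, Polr1b, Polr1a, Wdr12, Wdr43, Pes1, Bop1 and Dkc1. The rule found 40 genes among the 53700 in the count table.

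Their polyadenylated RNA was sequenced from 8 pools of cells sorted from mouse bone marrow, with 1 library for every combination of 2 cell types with 4 genotypes of the donor. Haematopoietic stem cells (HSC) were CD48-negative and CD150-positive, multipotent progenitors (MPP) were CD48-positive and CD150-negative, and both were taken from the LSK gate of primitive marrow cells. Donors were Nfat5 +/+ with Vav-Cre (labelled WT), Nfat5 fl/fl with Vav-Cre (N5), deficient in IFNAR1 (IFNAR), or Nfat5 fl/fl with Vav-Cre and deficient in IFNAR1 (DKO). Vav-Cre removes a floxed gene in blood-forming cells, Nfat5 encodes a transcription factor known from the cell's answer to high salt, and IFNAR1 is part of the receptor for type I interferons. Donor marrow (CD45.2) had been transplanted into irradiated wild-type CD45.1 mice, and donor-derived cells of 5 recipients were pooled for each library 13 weeks later, so the recipient environment was wild-type in all groups. The labels do not say whether the IFNAR donors carried Vav-Cre, or whether the HSC and MPP pools of a genotype came from the same mice. Where 4 values are given for a cell type below, they stand in the order WT, N5, IFNAR, DKO.

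Total counts ran from 28871693 to 47205950 per library. The sorted populations carried their markers: 6 of 7 HSC marker genes lay higher in all 4 HSC libraries than in any MPP library, and 6 of 7 MPP marker genes lay lower, with Hlf and Il7r as the exceptions. Of the T and NK cell markers Cd3d, Cd3e and Cd3g had 0 counts in all libraries, as did the stromal and endothelial markers Cdh5, Col1a1, Col3a1 and Lepr. Levels below are in CPM (counts scaled to the library's total after TMM normalization). Others on those lists had counts, such as Klrb1c (26.1 CPM in HSC labelled WT) and Pecam1 (15.4 to 183 CPM). So did markers of other blood lineages, such as Hba-a2 (erythroid, 41.2 to 291 CPM), S100a8 (neutrophil, 36.7 to 165 CPM) and Lyz2 (monocyte and macrophage, 424 to 1060 CPM). The targeted transcripts followed the genotype labels only in part. Nfat5 stood at 33.2, 22.7, 3.12 and 35.5 CPM in HSC and 5.59, 7.69, 0.193 and 11.5 CPM in MPP. It was thus lowest under the label IFNAR, where it should be intact; under N5 it was below WT in HSC and above it in MPP, and under DKO it was above WT in both. Ifnar1 stood at 122, 126, 113 and 35.1 CPM in HSC and 37.2, 87.9, 43.8 and 125 CPM in MPP. It was low under the label DKO in HSC, as labelled, but highest under DKO in MPP, and near WT under IFNAR in both. A count over the whole gene cannot separate deleted exons from the rest, and these counts do not tell whether a library or column carries the wrong label. Libraries are therefore named by their labels throughout, and a difference by label may not be one by genotype.

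The 40 genes together took a smaller share of counts in HSC than in MPP. The share was 0.750%, 0.724%, 0.798% and 0.790% for HSC, and 0.8285%, 0.867%, 0.868% and 0.841% for MPP. The means were 0.765% ± 0.0348 in HSC and 0.851% ± 0.0194 in MPP (mean ± SD over n = 4 libraries, as in all such values). The highest HSC library lay below the lowest MPP library. Counting error is small beside this gap: the exact 95% binomial interval of the share in the HSC library labelled IFNAR was 0.795% to 0.801%, and in the MPP library labelled WT 0.825% to 0.832%. Npm1 and Ncl alone supplied 28.2% to 34.1% of these counts. Without them the summed level of the other 38 genes was 5113 to 5620 CPM in HSC and 5881 to 5988 CPM in MPP. Without the 4 genes whose HSC values all lay below their MPP values (Dkc1, Ncl, Nolc1 and Wdr43, picked here for that separation) the sums overlapped, at 5802 to 6464 CPM in HSC and 6379 to 6788 CPM in MPP. Proliferation genes lay the same way, with 16 of 16 fitted lower in HSC, 0 passing the test and a summed level of 3539 to 4266 CPM against 6353 to 7483 CPM, and their part in the result was not tested. In pooled cells a smaller share of expressing cells and less RNA per cell cannot be told apart.

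**Figure D1:**
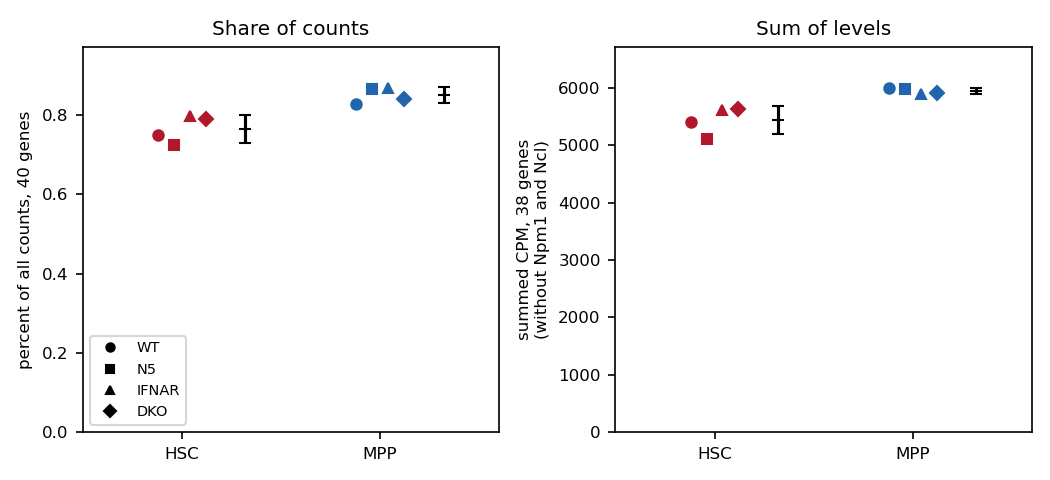
Left, the share of all counts (percent) taken by the 40 genes in each library; right, the summed CPM of the 38 genes other than Npm1 and Ncl. Each marker is 1 library, with its shape giving the genotype label, and the bar is the mean ± SD of 4 libraries; every HSC library lies below every MPP library on both axes, which start at 0.

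Gene by gene, no difference between HSC and MPP passed the test. Of the 40 genes, 39 had enough counts to be tested, and all but Utp14b were among them. Genotype was kept as a block, and edgeR's quasi-likelihood test with Benjamini-Hochberg adjustment over all 12132 genes tested called 0 of the 39 at an adjusted p under 0.05, where 0.0165% of all genes tested were called. Of the marker genes of the sorted populations, 0 of 7 for HSC and 2 of 7 for MPP passed the same test. A gene that did not pass may thus still differ. An unadjusted p under 0.05 was reached by 5 of 39 genes (12.8%), beside 10.1% of all genes. Fitted levels were lower in HSC for 27 of 39 (69.2%), beside 55.8% of all genes. In 4 of 39 (10.3%) the HSC libraries lay wholly below the MPP libraries, beside 5.65% of all genes, and in 0 of 39 wholly above, beside 4.73%. The median log2 difference over the 39 genes was -0.11, and -0.12 over all genes tested. By genotype it was -0.11, -0.25, -0.17 and 0.03 in the pairs labelled WT, N5, IFNAR and DKO, beside -0.06, -0.01, -0.02 and -0.01 over all genes. DESeq2, run as an alternative, called 4 of the 39 (Dkc1, Ncl and Nolc1 lower in HSC and Nop53 higher) and 1880 of all genes, while limma-voom called 0 of the 39 and 156 of all. P-values here measure only the spread between these 8 libraries, since each group had 1.

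**Figure D2:**
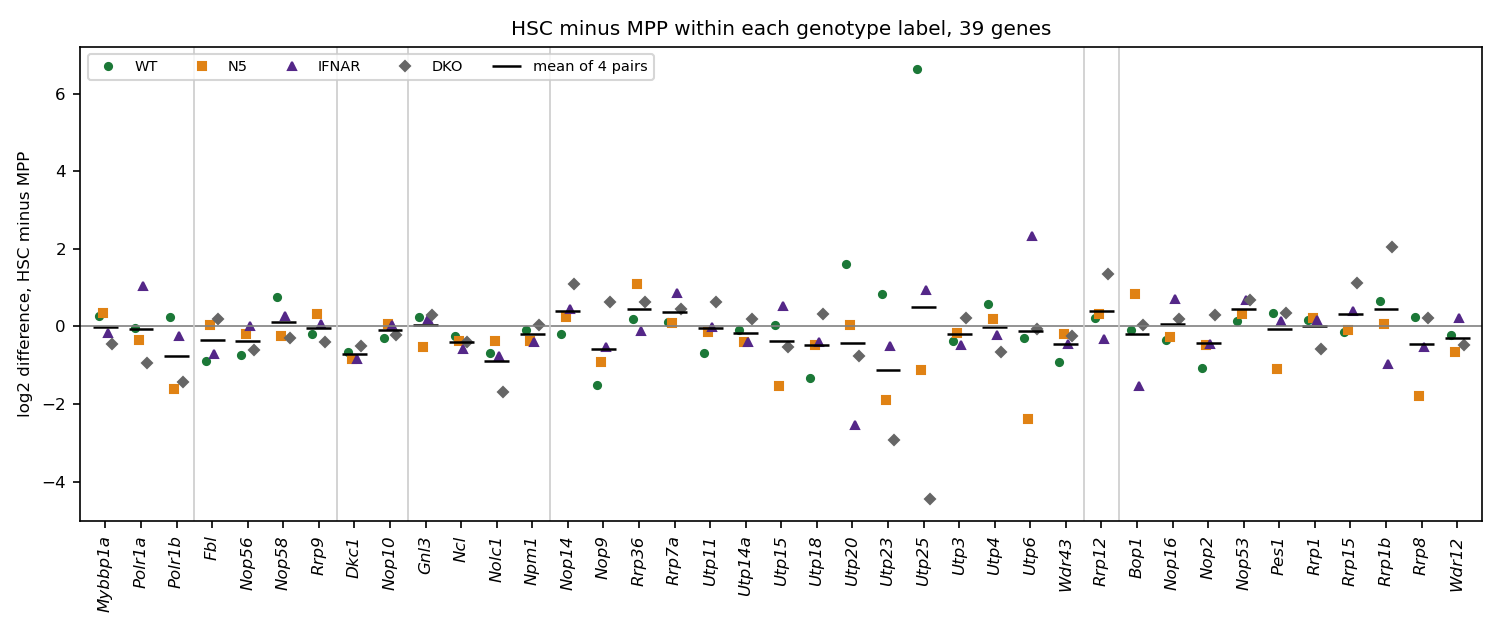
The log2 difference in CPM (prior count 2), HSC minus MPP, for each of the 39 tested genes (horizontal axis, ordered by role and separated by grey lines), with 1 marker per genotype label and a black bar for the mean of the 4 pairs. Dkc1, Ncl, Nolc1 and Wdr43 have all 4 markers below 0, Nop53 and Rrp7a all 4 above, and Utp20, Utp23, Utp25 and Utp6 scatter most.

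RNA polymerase I is a large enzyme of which Polr1a encodes the largest subunit and Polr1b the second largest. Polr1b had 114, 55.5, 133 and 57.4 CPM in HSC, and 96.7, 171, 157 and 156 CPM in MPP. Its HSC values overlapped those of MPP only through the MPP library labelled WT (log2 difference -0.77, SE 0.39, edgeR adjusted p = 0.625). Without either library labelled N5 it was -0.48. Polr1a had 62.4, 75.1, 18.4 and 63.9 CPM in HSC and 64.6, 95.5, 8.91 and 123 CPM in MPP. The libraries labelled IFNAR were the lowest in both cell types, and HSC and MPP overlapped (-0.08, SE 0.42). Mybbp1a, whose product binds Myb and represses ribosomal DNA transcription, had 281 to 546 CPM in HSC and 387 to 484 CPM in MPP.

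Box H/ACA snoRNPs turn selected uridines of ribosomal RNA into pseudouridine. Dkc1, on chromosome X, encodes their catalytic subunit dyskerin, which is also part of telomerase and is mutated in dyskeratosis congenita, a bone marrow failure syndrome. It had 293, 216, 284 and 295 CPM in HSC and 466, 385, 512 and 417 CPM in MPP. Every HSC library lay below every MPP library, and the means were 272 ± 37.7 and 445 ± 55.9 CPM. This was the smallest p of the 40 genes, and it did not pass (log2 difference -0.71, SE 0.12, unadjusted p = 0.00159, edgeR adjusted p = 0.189). Nop10, which encodes a small partner of dyskerin, had 117 to 169.6 CPM in HSC and 144 to 167 CPM in MPP, with the HSC range enclosing that of MPP. Of the assembly factors of snoRNPs outside the 40 genes, 9 of 11 lay lower in HSC and 0 passed. Their median log2 difference was -0.36, beside -0.12 over all genes tested. Naf1, an assembly factor of H/ACA particles, was near the limit of detection, with 0 to 0.338 CPM in HSC and 0.386 to 1.62 CPM in MPP. Ruvbl2, a helicase-like assembly factor, averaged 204 ± 74.0 CPM in HSC against 283 ± 51.6 CPM in MPP.

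Box C/D snoRNPs methylate ribosomal RNA, with fibrillarin (Fbl) as the methyltransferase and Nop56 and Nop58 as its scaffold. Nop56 had 357, 575, 506 and 489 CPM in HSC and 592, 654, 501 and 742 CPM in MPP. It was lower in HSC in 3 of 4 pairs, and the groups overlapped through the MPP library labelled IFNAR (log2 difference -0.37, SE 0.16, edgeR adjusted p = 0.535). Fbl had 75.3, 158, 111 and 114 CPM in HSC and 139.8, 154, 182 and 100.01 CPM in MPP, with overlap and 2 of 4 pairs in each direction. Its difference of -0.35 (SE 0.26) ran from -0.16 without either library labelled WT to -0.53 without either labelled DKO. Nop58 also split its pairs evenly, with 171, 149.6, 229 and 189 CPM in HSC and 100.4, 178, 190.1 and 232 CPM in MPP. Rrp9, a protein of the U3 particle that guides the first cuts of the precursor, had 71.9 to 112 CPM in HSC and 78.8 to 129 CPM in MPP. None of the 4 box C/D members had separate groups.

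Further members act as nucleolar chaperones and regulators. Nucleolin (Ncl) binds the nascent ribosomal transcript. It had 827, 892, 846 and 821 CPM in HSC and 977, 1156, 1263 and 1081 CPM in MPP. The HSC libraries lay close together and all below MPP (847 ± 32.04 against 1119 ± 121 CPM, log2 difference -0.40, SE 0.10, edgeR adjusted p = 0.324). Nolc1, which encodes a chaperone of snoRNPs that links the nucleolus with Cajal bodies, had 144, 177, 155 and 76.6 CPM in HSC and 233, 231, 262 and 247 CPM in MPP. Here too the groups did not overlap, with the HSC library labelled DKO the lowest (138 ± 43.3 against 243 ± 14.7 CPM, -0.88, SE 0.25, adjusted p = 0.364 with edgeR). Nucleophosmin (Npm1), a histone and ribosome chaperone often mutated in acute myeloid leukaemia, had 1336, 1282, 1355 and 1428 CPM in HSC and 1438, 1656, 1776 and 1396 CPM in MPP. Only the libraries labelled DKO broke the separation of the groups (-0.21, SE 0.11, adjusted p = 0.653 with edgeR). Gnl3, which encodes the GTPase nucleostemin, had 319, 243, 379 and 345 CPM in HSC and 272, 353, 335 and 282 CPM in MPP, with overlapping groups and a difference near 0 (0.04, SE 0.18).

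The small subunit is built on the processome, a large particle of Utp proteins and partners that forms on the precursor as it is transcribed. Of its 15 tested genes, 11 had a mean of the 4 pairs below 0, with a median of -0.18, beside -0.12 over all genes. Wdr43, a processome protein, had 171, 200.4, 184 and 213 CPM in HSC and 323, 230.2, 249.7 and 254 CPM in MPP. All HSC libraries lay below all MPP libraries (192 ± 18.6 against 264 ± 40.5 CPM, log2 difference -0.45, SE 0.17, edgeR adjusted p = 0.474). Without either library labelled WT the difference was -0.30. Rrp7a, a processome factor, was higher in HSC in 4 of 4 pairs while its groups overlapped, at 271, 180.5, 235 and 265 CPM in HSC and 249.9, 171, 129.6 and 194 CPM in MPP (0.37, SE 0.18, edgeR adjusted p = 0.599). Without the libraries labelled IFNAR it was 0.21. Such agreement of 4 pairs was seen in 2 of 39 genes upward (5.13%, beside 10% of all genes tested) and in 4 of 39 downward (10.3%, beside 12%). Nop9, which encodes an RNA-binding protein of small subunit assembly, had 32.9, 100.2, 74.0 and 99.9 CPM in HSC and 93.8, 189.7, 108 and 65.0 CPM in MPP (-0.60, SE 0.40), and its difference ran from -0.29 without either library labelled WT to -0.99 without either labelled DKO. Nop14, whose product is part of the processome, had 114, 68.8, 141 and 142 CPM in HSC and 132, 57.9, 103 and 66.4 CPM in MPP (0.40, SE 0.27). The difference of Nop14 ran from 0.17 and 0.16 without the HSC and the MPP library labelled DKO to 0.60 without either labelled WT. Both overlapped between the cell types. Rrp12, a factor in the export of both subunits, had 96.5, 85.4, 40.3 and 157 CPM in HSC and 50.7 to 82.5 CPM in MPP.

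Several Utp genes, mostly at low level, varied widely between libraries. Utp25 had 5.62, 3.49, 20.005 and 0.823 CPM in HSC, and 0, 7.73, 10.4 and 19.2 CPM in MPP. Utp20 had 13.3, 31.5, 0.588 and 12.4 CPM in HSC and 4.37, 30.6, 3.71 and 21.1 CPM in MPP. Utp6 had 75.4, 19.0, 72.9 and 59.0 CPM in HSC and 93.0, 100.1, 14.6 and 61.3 CPM in MPP. The low library of Utp6 carried the label N5 in HSC and IFNAR in MPP. Utp14b was the gene that failed the filter. It had 0 counts in all 4 HSC libraries and in the MPP libraries labelled WT and N5, and 308 and 276 counts (8.47 and 7.81 CPM) in those labelled IFNAR and DKO. A count of 0 allows up to 3 counts, which is 0.0633 to 0.105 CPM in these libraries. Utp14b is an intronless copy of Utp14a that lies within Acsl3 on the same strand of chromosome 1, so reads from Acsl3 or from Utp14a could be assigned to it.

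**Figure D3:**
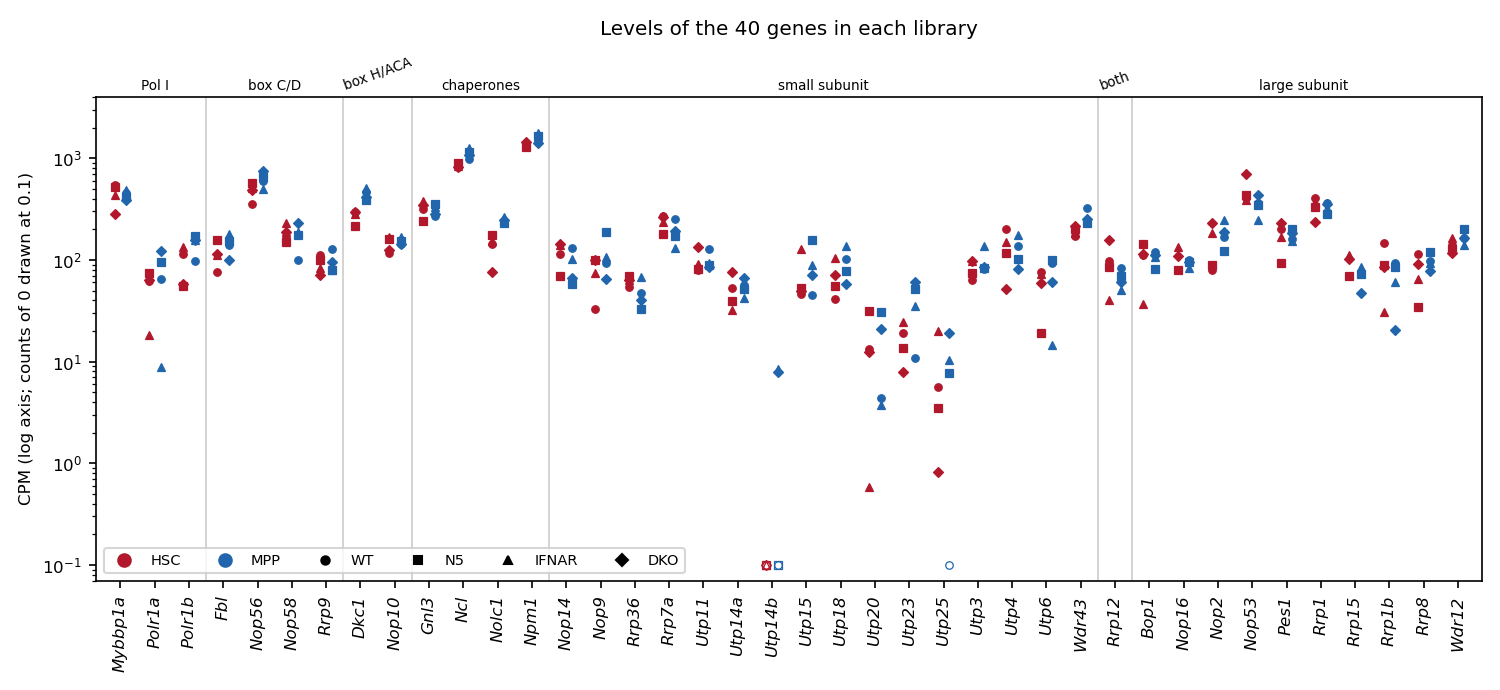
Levels (CPM, log axis) of all 40 genes in each of the 8 libraries, ordered by role; red is HSC, blue is MPP, marker shapes give the genotype label, and open markers at 0.1 are counts of 0. CPM is not divided by transcript length, so heights compare libraries within a gene and not genes. Utp20, Utp25, Polr1a and Utp6 are among the genes that spread widely. The axis spans a wide range, and 20 of 39 tested genes differ more than 2-fold among HSC libraries and 14 of 39 among MPP libraries.

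The large subunit members include Pes1, Bop1 and Wdr12, which form the PeBoW complex needed for maturation of the large subunit RNA. Pes1 had 203, 93.1, 169 and 231 CPM in HSC and 155 to 199 CPM in MPP. Bop1 had 113, 143, 36.9 and 115 CPM in HSC and 80.5 to 120.2 CPM in MPP, and Wdr12 had 118 to 165 CPM in HSC and 141 to 203 CPM in MPP. All 3 overlapped between cell types, with log2 differences of -0.07 (SE 0.29), -0.17 (SE 0.42) and -0.29 (SE 0.20). The low HSC library differed between the partners, N5 for Pes1, IFNAR for Bop1 and DKO for Wdr12. Without the libraries labelled IFNAR, an alternative added after seeing the data, the difference of Bop1 changed direction to 0.26. Leaving out either of the pair alone gave 0.26 each, which is no separate evidence. With genotype as a block, a library without its partner adds nothing to the difference between HSC and MPP. The difference of Wdr12 was -0.17 and -0.16 without the HSC and the MPP library labelled N5. It was -0.45 and -0.46 without those labelled IFNAR, and these were the ends of its range.

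Nop53, a large subunit factor that recruits the RNA exosome, ran against the majority. It had 404, 435, 390.1 and 694 CPM in HSC and 366, 349, 245 and 436 CPM in MPP, higher in HSC in 4 of 4 pairs. The groups overlapped through the MPP library labelled DKO, which exceeded 3 of the HSC libraries (log2 difference 0.45, SE 0.14, edgeR adjusted p = 0.394). Nop2, a methyltransferase of the large subunit RNA, had 80.2, 89.0, 182 and 232 CPM in HSC and 168, 123, 249.6 and 190.1 CPM in MPP (-0.43, SE 0.25, edgeR adjusted p = 0.690). Its difference ran from -0.21 and -0.22 without the HSC and the MPP library labelled WT to -0.67 without either labelled DKO. The 10 large subunit members had a median of -0.04, with 6 lower and 4 higher in HSC. The exosome and other processing nucleases, outside the 40 genes, had 15 of 19 tested genes lower, 0 passing and 1 wholly below MPP. Their median was -0.50, beside -0.12 over all genes tested, of which 6874 of 12132 lay lower. Among them Exosc9, an exosome subunit, had 14.8, 6.52, 39.3 and 59.2 CPM in HSC and 51.2, 72.0, 128 and 119 CPM in MPP (edgeR adjusted p = 0.324), and Pop1, an RNase MRP subunit, had 0 to 4.47 CPM in HSC and 2.31 to 68.2 CPM in MPP.

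The rest of the pathway was taken from lists of other biogenesis genes. Of 142 listed genes 140 were tested, 0 passed, and 82 lay lower and 58 higher in HSC. The median was -0.19, beside -0.12 over all genes tested. Without overlap, 9 (6.43%) lay below MPP and 2 (1.43%) above, beside 5.65% and 4.73% of all genes tested. RNA polymerase I cofactors and shared subunits divided evenly, 9 lower and 9 higher. Polr2e, a subunit shared by all 3 polymerases, averaged 195 ± 58.0 CPM in HSC against 234 ± 35.8 CPM in MPP, and Polr2k, another shared subunit, 12.2 ± 4.07 against 25.5 ± 5.79 CPM. Small subunit factors had 17 lower and 25 higher. The 2 of smallest p ran against that majority, Mphosph10 at 43.1 ± 16.6 against 97.4 ± 44.1 CPM and Pno1, a late factor, at 29.7 ± 13.5 against 65.7 ± 14.6 CPM. In this list 2 genes lay wholly below MPP and 2 wholly above. Those above were Nat10 (150 ± 11.2 against 107 ± 23.5 CPM) and Imp3 (94.8 ± 23.7 against 59.6 ± 12.7 CPM). Large subunit factors had 32 of 50 lower, with Nip7 at 74.8 ± 4.81 against 108 ± 12.7 CPM and Rsl1d1 at 281 ± 95.8 against 370 ± 30.9 CPM. Myc and Mycn, which encode transcription factors that drive ribosome biogenesis, were expressed. Myc averaged 511 ± 87.8 CPM in HSC against 676 ± 96.9 CPM in MPP and was lower in HSC in 4 of 4 pairs (edgeR adjusted p = 0.340), while Mycn had 485 ± 110.4 against 64.5 ± 21.1 CPM (edgeR adjusted p = 0.0547).

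Features that the name rule did not use were looked up for the members. Many snoRNAs are cut from the introns of host genes. In the GENCODE M21 annotation 7 of 40 members (17.5%) held a snoRNA gene on their own strand, against 211 of 10649 tested protein-coding genes (1.98%). The hosts were Dkc1, Gnl3, Ncl, Nop53, Nop56, Nop58 and Wdr43. HSC levels lay wholly below MPP in 3 of the 7 hosts and 1 of the 32 other tested members, beside 5.65% of all genes tested. Fitted levels were lower in HSC for 4 of the 7 hosts, and Nop53 lay the other way. The median fitted difference was -0.38 over 7 hosts and -0.12 over 32 other tested members. This property was examined after the values were seen, and the 211 tested host genes were not compared in this way. On the opposite strand 18 of 40 members overlapped another gene, Dkc1 with Mpp1, Nop56 with Idh3b, Polr1a with 2 predicted genes and Rrp7a with Serhl among them. Smart-Seq2 libraries do not mark strand, so reads from sequence that falls in exons of both genes cannot be told apart. The overlap was counted over whole genes, introns included, and whether exons overlap was not examined.

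The E-box CACGTG, the motif bound by MYC with its partner MAX, was searched in the RefSeq promoter windows (250 bases before to 50 bases after each annotated start, build GRCm38.p6). It reads the same on both strands. A window was found for 32 members; Bop1, Fbl, Nop53, Npm1, Rrp12, Utp11, Utp23 and Utp6 had none. The motif stood in 10 of 32 (31.2%), against 12.1% of 8927 tested genes and 8.09% of all 27025 genes with a window. A match is a description of the sequence and not a binding site. The 4 matches of smallest p for HSC against MPP are shown, with the motif in capitals and the sequence 5′ to 3′ on the gene's strand, to set the motif's place beside the gene's values. Only part of each window is shown, and the stretch of Wdr43 stops short of the window's end.
Wdr43: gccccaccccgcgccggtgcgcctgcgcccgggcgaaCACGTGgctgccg
Rrp7a: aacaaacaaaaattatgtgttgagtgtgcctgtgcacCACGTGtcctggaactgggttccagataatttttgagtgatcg
Nop2: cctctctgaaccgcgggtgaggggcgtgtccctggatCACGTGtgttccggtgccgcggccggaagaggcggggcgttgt
Utp18: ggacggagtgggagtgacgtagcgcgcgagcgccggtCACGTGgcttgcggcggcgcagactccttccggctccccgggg
These lie at chr17:71616195-71616244 on the plus strand, chr15:83122967-83123046 on the minus strand, chr6:125131786-125131865 on the plus strand and chr11:93885744-93885823 on the minus strand. The motif began 17 bases past the annotated start in Wdr43, and 208, 60 and 20 bases before it in Rrp7a, Nop2 and Utp18. Of these genes Wdr43 was wholly lower in HSC, Rrp7a was higher in 4 of 4 pairs, and Nop2 and Utp18 were lower in 3 of 4. Utp18 had 41.1, 55.9, 104 and 70.9 CPM in HSC and 103, 78.2, 137 and 57.3 CPM in MPP (log2 difference -0.47, SE 0.33). The median difference was -0.07 over the 9 tested members with the motif and -0.14 over the 22 without it.

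Neither genotype factor gave a call. Nfat5 loss was read from the labels N5 and DKO against WT and IFNAR, with cell type and Ifnar1 loss in the model, and Ifnar1 loss from IFNAR and DKO against WT and N5. In edgeR 0 of 39 genes passed for either factor or for their interaction (adjusted p = 1 for all), where 0% of all genes tested were called. An unadjusted p under 0.05 was reached by 1 gene for Nfat5 loss (2.56%, beside 2.79% of all genes), 1 for Ifnar1 loss (2.56%, beside 3.28%) and 3 for the interaction (7.69%, beside 3.33%). The median log2 difference over the 39 genes was -0.03 for Nfat5 loss and 0.05 for Ifnar1 loss, and 0.03 and -0.01 over all genes. The 2 comparisons share all 8 libraries. For Nfat5 loss 24 of 39 genes lay below 0 (61.5%, beside 48.4%), for Ifnar1 loss 17 of 39 (43.6%, beside 50.4%), and for the interaction 21 of 39 (53.8%, beside 49.4%). DESeq2 called 1 of the 39 for each factor (Utp4 and Nop2) and 0 for the interaction, and limma-voom called 0 in all 3.

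For Nfat5 loss the smallest p belonged to Utp4, which encodes a processome protein. In HSC it had 203 and 151 CPM under the labels WT and IFNAR against 117 and 51.6 CPM under N5 and DKO, and 137 and 176 against 102 and 81.3 CPM in MPP. Its 4 libraries labelled Nfat5-deficient all lay below the other 4, but the share of all genes so separated was not counted. It was lower in 4 of 4 pairs (log2 difference -0.97, SE 0.27, edgeR unadjusted p = 0.0105). Without the libraries labelled IFNAR the difference was -0.64. Polr1a was higher in 4 of 4 pairs, by 0.27 and 1.80 in HSC and 0.56 and 3.78 in MPP, with the larger value in each cell type against the low library labelled IFNAR (1.55, SE 0.64, unadjusted p = 0.0507). Without the libraries labelled IFNAR it was 0.40, and without the MPP one alone 0.97. Utp20 was also higher in 4 of 4 pairs, by 1.24 and 4.28 in HSC and 2.79 and 2.49 in MPP (2.38, SE 1.02, unadjusted p = 0.0559). Agreement of all 4 pairs was seen in 2 of 39 genes in each direction (5.13%), beside 5.52% of all genes downward and 6.14% upward.

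Polr1a and Utp20 have long transcripts, and the level of genes with long transcripts differed between labels, highest in the libraries labelled N5. Their longest annotated coding transcripts have 9216 and 8821 bases in GENCODE M21, which gave a length for 87.6% of tested genes. Over the 540 tested genes with transcripts above 8000 bases, the median log2 level against the other 3 genotypes of the cell type was 0.44 and 0.39 in HSC and MPP labelled N5 and 0.14 and 0.29 in those labelled DKO. It was 0.09 in both cell types labelled WT and -0.01 and -0.09 in HSC and MPP labelled IFNAR. Over the 2201 genes with transcripts of 1000 to 2000 bases, HSC and MPP stood at 0.06 and -0.04 under N5 and 0.14 and 0.03 under DKO. The values there were -0.02 and 0.06 under WT and 0.06 and 0.10 under IFNAR. HSC labelled DKO thus had the same value, 0.14, for short and for long transcripts. Polr1a lay at -1.86 and -3.35 in HSC and MPP labelled IFNAR, and Utp20 at -4.76 and -1.91. In the libraries labelled N5 both genes lay between 0.84 and 2.73. In 3 other members the longest annotated transcript also exceeds 8000 bases, and which transcript was expressed was not examined. Under the label IFNAR, Nop58 (9507 bases) lay at 0.44 and 0.24 in HSC and MPP, and Wdr12 (10012 bases) at 0.36 and -0.32. Ncl (8202 bases) lay at 0.24 in MPP with no difference in HSC. The part of transcript length in these differences was not tested.

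**Figure D4:**
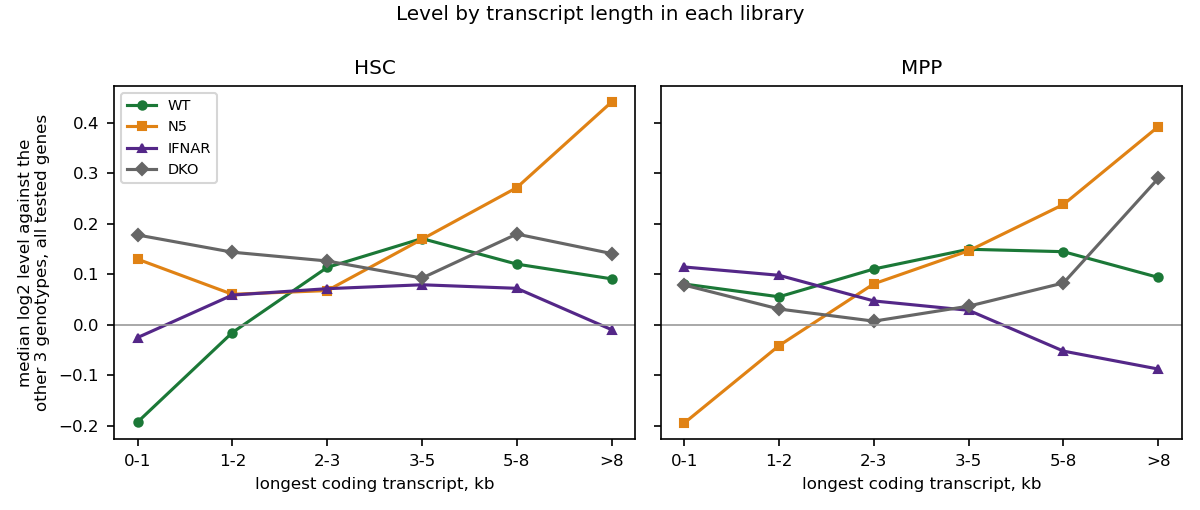
Median log2 level of all tested genes in a library against the mean of the other 3 genotypes of the same cell type (vertical axis), by length of the longest coding transcript (horizontal axis, kb), for HSC on the left and MPP on the right. Above 8 kb the libraries labelled N5 are the highest, at 0.44 in HSC and 0.39 in MPP, and those labelled IFNAR the lowest.

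For Ifnar1 loss the smallest p belonged to Nop2. In HSC it had 182 and 232 CPM under the labels IFNAR and DKO against 80.2 and 89.0 CPM under WT and N5, and 249.6 and 190.1 against 168 and 123 CPM in MPP. All 4 libraries labelled Ifnar1-deficient lay above the other 4 (213 ± 32.7 against 115 ± 39.98 CPM, log2 difference 0.94, SE 0.23, unadjusted p = 0.00626). The SD here includes the difference between cell types. How many of all genes separate by this label was not counted. Nop58 was higher in 4 of 4 pairs, by 0.42 and 0.34 in HSC and 0.92 and 0.39 in MPP (0.50, SE 0.22, unadjusted p = 0.0579), and 0.32 without the MPP library labelled WT. Rrp1b, a large subunit processing factor, had 147, 88.8, 31.0 and 85.0 CPM in HSC and 93.1, 85.4, 60.4 and 20.5 CPM in MPP. It was lower in 4 of 4 pairs, by amounts from -0.06 to -2.24 (-1.07, SE 0.48, unadjusted p = 0.0663). Without the HSC library labelled DKO the difference was -1.67, and without the HSC library labelled IFNAR -0.80. Agreement of all 4 pairs was seen in 3 of 39 genes upward (7.69%, beside 6.42% of all genes) and 2 downward (5.13%, beside 6.33%). For the interaction, whether the Nfat5 difference depended on the Ifnar1 label, the smallest unadjusted p values were 0.0309 for Nop53 (0.82, SE 0.28), 0.0355 for Polr1a (2.33, SE 0.83) and 0.0491 for Rrp7a (0.92, SE 0.36).

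**Figure D5:**
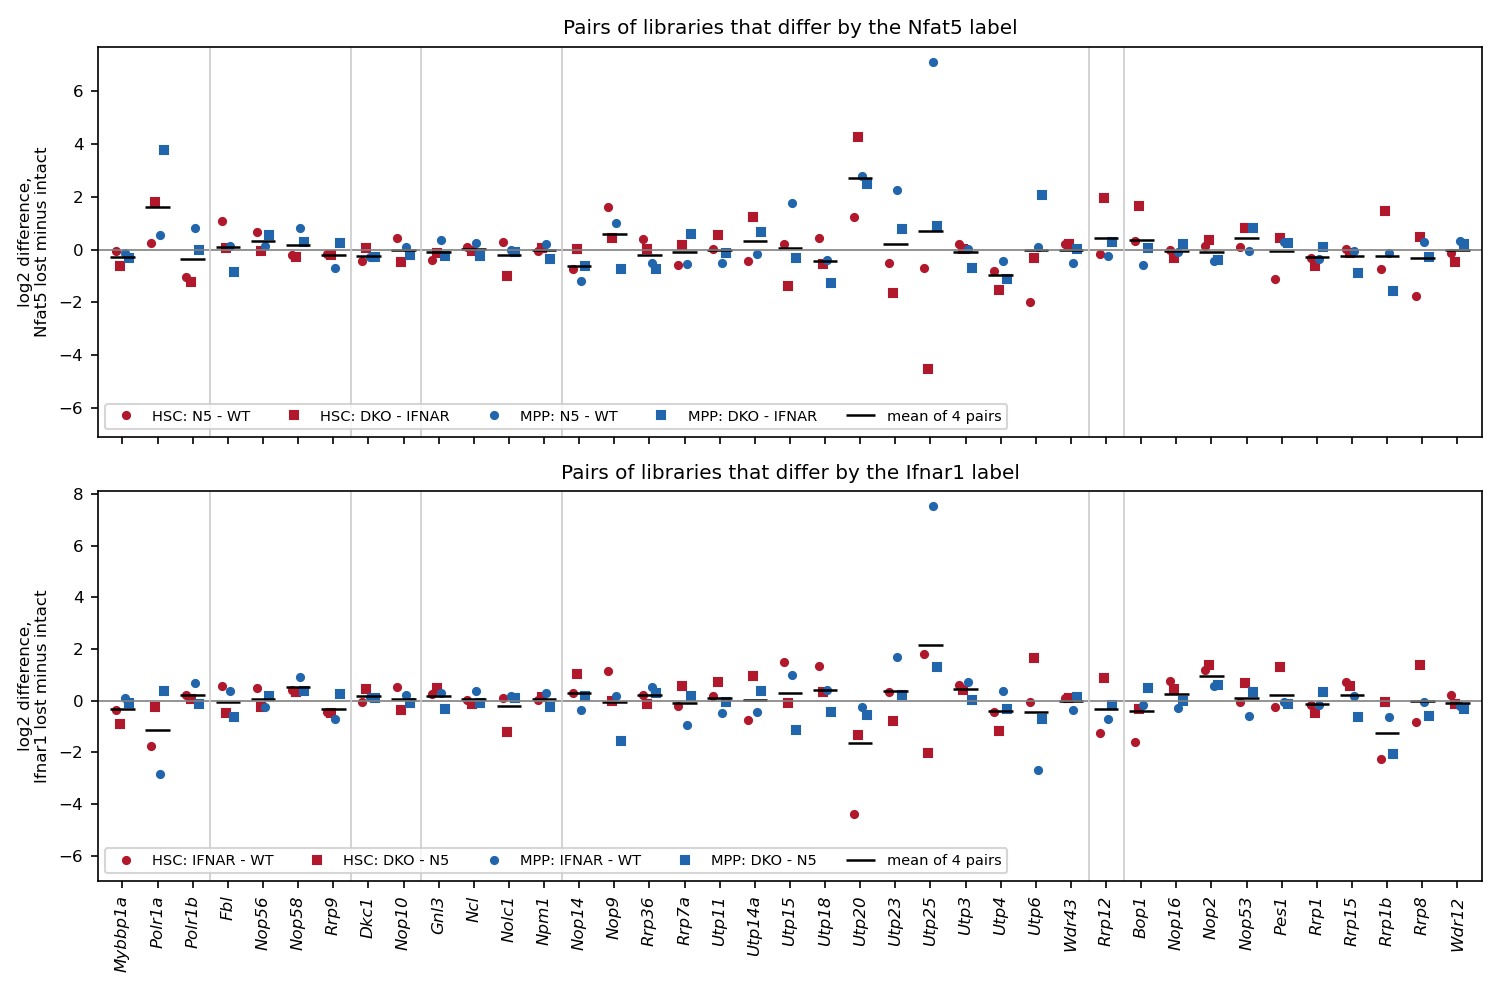
Log2 differences in CPM (prior count 2) between libraries that differ by the Nfat5 label (top) and by the Ifnar1 label (bottom) for the 39 tested genes, ordered by role; each marker is 1 pair, red in HSC and blue in MPP, and the black bar is the mean of 4 pairs. Utp4 lies below 0 and Utp20 and Polr1a above 0 in all 4 pairs of the top panel, and Nop2 above 0 in all 4 pairs of the bottom panel.

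Within a cell type, the 4 genotypes differed by more than 2-fold between the highest and lowest library in 20 of 39 genes in HSC (51.3%) and 14 of 39 in MPP (35.9%), against 73.5% and 62.9% of all genes tested. The median SD of log2 CPM over the members was 0.44 in HSC and 0.35 in MPP, against 0.79 and 0.59 over all genes tested. Among genes with a mean of at least 50 CPM it was 0.41 and 0.31 over 36 members, and 0.47 and 0.35 over 4669 genes. Ncl varied least in HSC, 1.09-fold from its lowest to its highest library, and Npm1 followed at 1.11-fold. In MPP these were 1.29-fold and 1.27-fold. At the other end the HSC libraries differed 53.6-fold for Utp20 and 24.3-fold for Utp25.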

How the data were processed

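Gene counts for the 8 libraries were deposited as whole numbers, not normalized. Per the submitters' processing notes, STAR 2.7.8a, RSEM 1.3.0 and GRCm39 were used; the annotation release is not given in the sources used here. Per the labels' protocols, polyadenylated RNA was amplified with Smart-Seq2, which marks neither molecules nor strand. Counts were tested with edgeR 4.0.16 in R 4.3.3 (older quasi-likelihood method, TMM, filterByExpr by cell type, 12132 genes, Benjamini-Hochberg at 0.05), with genotype as a block for HSC against MPP and cell type, Nfat5 label and Ifnar1 label as terms otherwise. The code was checked on data with known answers. Levels are CPM after TMM, and log2 differences of pairs use a prior count of 2. Intervals and floors (3 counts) cover counting error only. Alternatives were RLE scaling, other filters, the bias-adjusted method, DESeq2 1.42.0, limma-voom (3.58.1), other terms and leaving out each library. Named genes were 10 fixed members, the smallest p of each comparison (8 further, then 3 for each of the others), the 3 widest HSC spreads, members failing the filter, and the 2 genes of smallest p for HSC against MPP per pathway list. Rrp12, Mybbp1a, Nop10, Rrp9, Utp18, Myc and Mycn were added to show roles, and Nat10 and Imp3 as pathway genes wholly above MPP. Protein sequences were not used here. Members, lists and tests were chosen with earlier results of these data known.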

Additional observations from a re-analysis of the deposited data

Results flagged for a closer look

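Among 49 groups of 4 libraries (each gene named by the rule in each cell type, Utp14b in MPP only), 2 had a library standing apart from the other 3 by Dixon's criterion, and chance flags about 1 in 20 groups. Dkc1 had 216 CPM in the HSC library labelled N5, against 284 to 295 CPM in the other 3 HSC libraries. Nop53 had 694 CPM in the HSC library labelled DKO, against 390.1 to 435 CPM in the other 3.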

How the results depend on the processing

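The count of 0 called members held in each of the 4 comparisons under every alternative run for it other than DESeq2, leaving out any 1 library included (0 to 0). DESeq2 called 4 members for HSC against MPP (Dkc1, log2 difference -0.68, adjusted p = 1.99e-08; Ncl, -0.37; Nolc1, -0.85; Nop53, 0.48), 1 for Nfat5 loss (Utp4, -0.98, adjusted p = 0.0432), 1 for Ifnar1 loss (Nop2, 0.94, adjusted p = 0.0140) and 0 for the interaction; the cause was not tested. Over all genes HSC against MPP gave 2 calls in edgeR, 23 with a filter of 10 CPM in 4 libraries, 107 with the bias-adjusted method, 156 with limma-voom, 207 without the genotype block, 32 with Nfat5 and Ifnar1 terms in its place, 1880 with DESeq2 and 0 without any 1 library. Nfat5 loss, Ifnar1 loss and the interaction gave 0 in edgeR and 166, 233 and 393 with DESeq2, and Ifnar1 loss gave 1 with limma-voom and 1 with the bias-adjusted method. Members wholly above MPP in HSC numbered 0 to 1 leaving out 1 library and 2 without the libraries labelled IFNAR. With fewer libraries such separation is reached more easily. The share over all genes was not counted for these settings, so these counts have no background. Leaving out 1 library, the median of the members ran from -0.11 to 0.016 for Nfat5 loss and from 0.026 to 0.14 for Ifnar1 loss. Differences near 0 changed sign for Pes1 under limma-voom (0.036) and, leaving out 1 library, for Gnl3 (-0.046 to 0.23), Polr1a (-0.45 to 0.21), Pes1 (-0.21 to 0.26) and Bop1 (-0.52 to 0.26). Without the libraries labelled IFNAR, Gnl3 gave -0.0083 and Bop1 0.26. HSC and MPP libraries were paired by genotype label throughout, not by replicate numbers, which the labels do not carry. In the HSC against MPP fits with genotype as a block, leaving out 1 library therefore takes its whole pair out of the difference. Each group had 1 library, so the error came from the spread between genotypes or label combinations (common dispersion 1.09 to 1.14). Whether more depth would change the calls was not tested.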
